A study of Mus musculus with 17 samples.

Results

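The data described here cover the maturation of germinal centre (GC) B cells between day 7 and day 10 of a response that received no treatment. The time course held 39 mice, and its members were the 23 that the list of mice gave as Day7, Day9 or Day10 with no treatment, out of 69 entries in the lists of the whole series. Of these, 9 mice were taken at day 7, 6 at day 9 and 8 at day 10. Cells came from 2 experiments, in each of which the mice were told apart by antibody-bound barcodes (hashtags) and run together as 1 pool, and the mouse was the replicate throughout. The larger pool gave 6, 4 and 5 mice at the 3 days, and the smaller pool 3, 2 and 3.

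All mice shared the same model. B cells carrying B1-8hi, a knock-in heavy chain that binds the hapten NP when paired with a lambda light chain, were transferred into CD45.1 hosts primed with ovalbumin, and the hosts were then immunised with NP-OVA. Per the study's methods the donor cells also carried tetO-H2B-mCherry and Vav-tTA, a division tracker driven in all blood cells, and the sequenced cells were sorted GC B cells of lymph nodes that express DEC-205, from hosts that also received Ly75-/- B cells, which lack that receptor. By their labels the groups differ in the day after immunisation, and no mouse here was given the anti-DEC-OVA that the treated arm received. Per the study's methods mice of both sexes and of a range of several weeks of age were used, and the labels give neither for a single mouse. Each mouse was killed at 1 time, so the course is drawn across mice and not within them.

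Germinal centres are the sites in lymphoid tissue where activated B cells divide, mutate their antibody genes and compete for help from T cells. Cells move between a dark zone, where division and mutation take place, and a light zone, where they take up antigen, receive signals through CD40 and NF-kB, and are selected. A few leave as memory or plasma cells.

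After cells with under 200 genes or with 10% or more mitochondrial UMIs (unique molecular identifiers, which count captured RNA molecules) were left out, 14170 cells remained, 312 to 1045 per mouse, with 1984426 to 7674775 UMIs per mouse and a median of 4687 to 9375 UMIs per cell. The filter took 0.418% to 4.17% of cells in mice of the larger pool and 12.7% to 28.1% in the smaller pool, and 94 cell barcodes occurred in both pools. In every mouse 9 GC B cell markers summed to between 2266 and 2691 CPM, the UMI count scaled to the depth of the mouse. Marker sums of other cells were 79.8 to 126 CPM for T cells, most of it Lck, 1.1 to 8.24 CPM for stroma and 2.56 to 11.4 CPM for erythroid cells. Myeloid markers lay between 9.48 and 34.4 CPM in 22 mice and at 322 CPM in 1 day 7 mouse of the smaller pool, with S100a9 at up to 136 CPM. Markers of other B lineage cells, which GC B cells also transcribe in part, summed to 874 to 1348 CPM for naive or follicular B cells and to 1062 to 1872 CPM for plasma cells in 22 mice. The mouse with myeloid transcripts had 2768 CPM of plasma cell markers, above its 2397 CPM of GC B cell markers. All 6 T cell markers tested were above zero between day 7 and day 10, with a median log2 change of 0.41 and 0 called, and the part of T cell RNA in the results was not tested. One day 7 mouse of the larger pool stood apart, with 68.6% of its cells in G1, the lowest depth per cell of that pool and the lowest share of B1-8hi cells of that pool. Leaving out 1 mouse at a time gave 369 changed genes without the G1-rich mouse and 313 without the mouse with myeloid transcripts, against 331 with all mice.

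The first question was which genes differed between day 10 and day 7. Of 10016 genes tested, 157 were higher and 174 lower at day 10, which is 1.57% and 1.74% of the genes, at an adjusted p under 0.05 (edgeR quasi-likelihood test with a term for the pool, Benjamini-Hochberg adjustment over all genes). The changes were mostly small. The median size among the rises was 0.45 on the log2 scale, and among the falls 0.23, and 16 genes rose and 6 fell by at least 1 on that scale. The median change of all genes was -0.01. Among genes with an average log2 CPM above 4, Def8 and Lmo7 rose most and the immediate-early genes Fos and Jun fell most, as the plot of change against average level shows. Some genes of lower level changed as much. The receptor tyrosine kinase Ret (1.94), Evc (1.84), the calcium channel Ryr2 (1.61) and the transcription factor Tox2 (1.43) rose and the protein kinase A subunit Prkar2b (-1.57) fell, all 5 being named after their values were seen. In that order their average log2 CPM was 1.60, 1.87, 1.87, 3.72 and 0.90. The SE of their changes was 0.28, 0.30, 0.31, 0.22 and 0.27, so these are large changes of low counts.

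**Figure D1:**
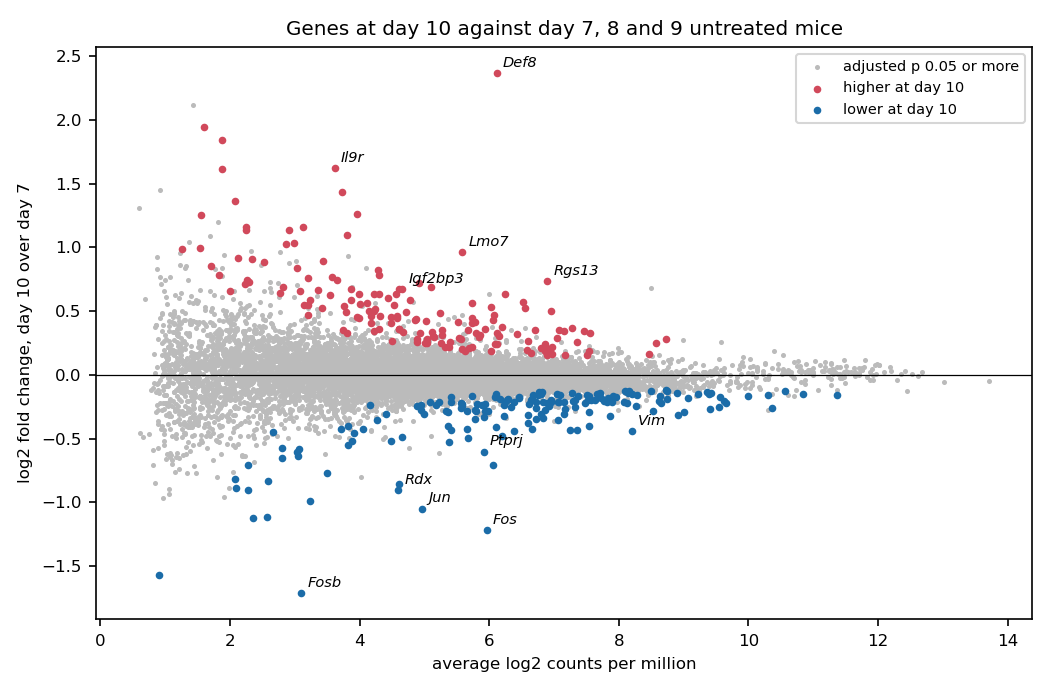
Change between day 10 and day 7 for the 10016 genes tested. The horizontal axis is the average log2 CPM and the vertical axis the fitted log2 fold change of day 10 over day 7, in red for the 157 genes called higher, in blue for the 174 called lower and in grey for the rest. Def8 has the largest change of the called genes, 2.37, and most called genes lie between -1 and 1.

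The 2 pools held different mice, so each could be set beside the other. They also differed in sex-linked transcripts: 4 genes of the Y chromosome summed to 0 to 3.11 CPM in the 15 mice of the larger pool and to 248 to 283 CPM in the 8 of the smaller pool, so in these data pool and the sex of the cells cannot be told apart. Fitted alone, the larger pool called 145 genes higher and 73 lower. Of the 144 rises that were also tested in the smaller pool, 124 (86.1%) had the same direction there, with a median log2 change of 0.58 in the larger and 0.22 in the smaller pool. Of the 73 falls, 63 (86.3%) had the same direction, with medians of -0.37 and -0.19. The background for these shares is the 56.4% and 56.5% of all genes higher and lower in the larger pool that kept their direction. The smaller pool alone, with 3 mice against 3, called 0 genes by the same test, 971 at an unadjusted p under 0.05, and a test of the difference in change between pools called 0 of 10016 genes, with 642 at an unadjusted p under 0.05.

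Def8, which encodes a regulator of lysosome positioning, showed the largest rise of the 157. Its gene lies at chr8:124150266-124194194 on the plus strand of GRCm39. In the 9 day 7 mice its level ran from 6.77 to 35.8 CPM with a median of 22.6, at day 9 from 22.8 to 126 with a median of 64.6, and at day 10 from 59.8 to 186 with a median of 107. All 8 day 10 mice were above all 9 day 7 mice, in both pools, whereas the day 9 mice overlapped both. The change was 2.37 ± 0.28 (SE) on the log2 scale, a 5.16-fold rise (adjusted p = 9.1e-06), and it was 2.51 in the larger and 2.09 in the smaller pool. By day 9 the change over day 7 was 1.62 (adjusted p = 0.017), and that from day 9 to day 10 was 0.75 (adjusted p = 0.5).

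The same counts were read per cell. The share of cells with at least 1 Def8 UMI had a median over mice of 9.75% at day 7 (3.94% to 11.4%), 19.2% at day 9 (7.97% to 29.8%) and 30.0% at day 10 (17.7% to 40.6%). With each cell thinned to 2871 UMIs and shallower cells left out (559, 532 and 701 of 5299, 3924 and 4947 cells), the medians were 4.51%, 10.4% and 17.6%, and the day 7 and day 10 ranges of 2.29% to 6.11% and 11.9% to 28.2% did not overlap. Over the pooled cells of a day, without thinning, the highest Def8 count in 1 cell was 12 at day 7, 54 at day 9 and 47 at day 10. Cells with exactly 1 UMI gave 30.1% of all Def8 UMIs at day 7 and 11.9% at day 10. These pooled values were not taken per mouse. The libraries were of 1 sorted cell type, so no cell type that lacks Def8 was at hand to set a background for these shares.

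Rgs13 encodes a regulator of G protein signalling that is typical of GC B cells and damps signals of chemokine receptors. It spanned 68.0 to 135 CPM at day 7 with a median of 103, 86.1 to 122 at day 9 with a median of 98.2, and 123 to 224 at day 10 with a median of 146. Day 7 and day 9 mice covered much the same range, and within each pool every day 10 mouse was above every day 7 mouse. The change from day 7 to day 10 was 0.73 ± 0.12 (adjusted p = 0.00049), with 0.97 in the larger and 0.34 in the smaller pool, while that from day 7 to day 9 was 0.10 (adjusted p = 0.91). The share of cells with an Rgs13 UMI after thinning had medians of 21.2%, 21.4% and 29.4% at the 3 days.

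Igf2bp3, an RNA-binding protein of fetal and proliferating cells, had the smallest error of the large rises. Its range was 15.1 to 23.2 CPM at day 7, 19.5 to 25.7 at day 9 and 27.3 to 35.5 at day 10, with medians of 20.9, 23.5 and 32.2. No day 10 mouse overlapped an earlier mouse. The rise of 0.68 ± 0.07 (adjusted p = 2.7e-06) was mostly of the last day, since day 10 was above day 9 by 0.49 (adjusted p = 0.0093).

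The other large rises were of genes with varied roles. Lmo7, a protein of cell junctions and actin, had a median of 30.0 CPM at day 7, 40.6 at day 9 and 65.1 at day 10, and rose by 0.97 ± 0.14 (adjusted p = 0.00011). Nt5e encodes CD73, the surface enzyme that makes adenosine and marks a part of GC and memory B cells, and went from 28 (20.1 to 35.8) to 43.8 CPM (35.2 to 55.5), a rise of 0.69 ± 0.10 (adjusted p = 0.00011). Gatm, the first enzyme of creatine synthesis, went from 61.4 (43.3 to 72) to 90.6 CPM (77.3 to 113) with no overlap between the days, a rise of 0.64 ± 0.08 (adjusted p = 9.9e-06). The formin Daam1, which builds actin filaments, the lipid carrier Osbpl3, the netrin-G family member Ntng2, the scaffolds Tanc2 and Akap12 and the tripartite-motif gene Trim30d completed the 12 largest rises above that average level. Their changes ran from 0.64 for Akap12 to 0.82 for Trim30d, and for Trim30d, Tanc2 and Akap12 the day 7 and day 10 mice overlapped in both pools. Trim30d belongs to a cluster of near-identical genes, between which reads could be split, and its adjusted p of 0.04 reached 0.096 when 1 mouse was left out. Its level was 32.9, 43.3 and 47.9 CPM in 3 day 10 mice, the same 3 that had the highest sums of interferon-stimulated genes below, and 12.8 to 17.6 CPM in the other 5, within the day 7 range of 7.72 to 22.7 CPM.

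**Figure D2:**
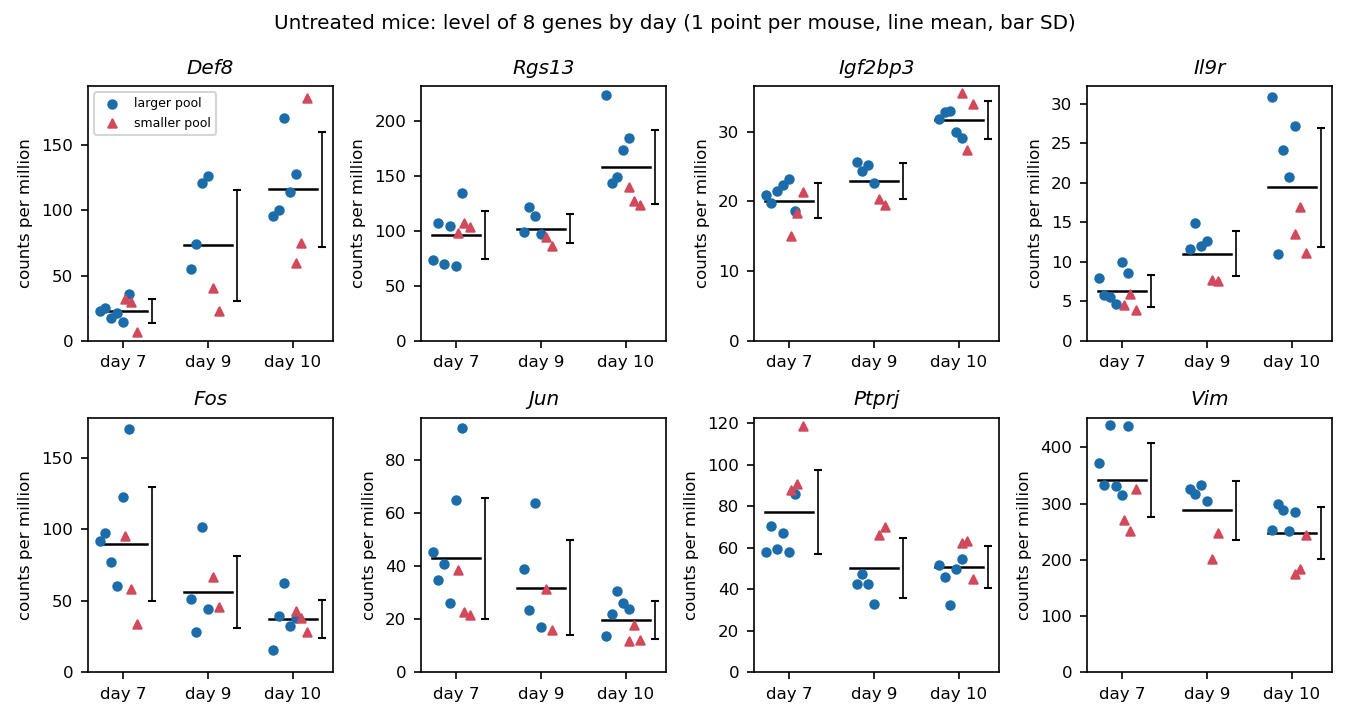
Level of 8 genes in each of the 23 untreated mice, in CPM on an axis that starts at 0, by day. Circles are mice of the larger pool, triangles mice of the smaller pool, the line is the mean and the bar 1 SD. For Def8, Igf2bp3 and Il9r every day 10 mouse lies above every day 7 mouse, whereas for Fos and Jun the days overlap.

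The largest falls at that level were in AP-1 genes. AP-1 is a transcription factor built from FOS and JUN proteins, whose genes are switched on within minutes by many stimuli. Fos ran from 33.8 to 171 CPM at day 7 (median 91.7), from 28.5 to 102 at day 9 (median 48.6) and from 15.4 to 62.8 at day 10 (median 38.0), a fall with a log2 change of -1.22 ± 0.24 (adjusted p = 0.0037). Jun ran from 21.8 to 91.8 CPM at day 7 (median 38.3) and from 11.7 to 30.5 at day 10 (median 19.9), with a change of -1.05 ± 0.25 (adjusted p = 0.013). Fosb, at a lower level, had medians of 10.6 CPM at day 7, 6.31 at day 9 and 2.77 at day 10 and a change of -1.71 ± 0.25 (adjusted p = 0.00011). The Fos level varied widely among the day 7 mice alone, and its day 7 and day 10 ranges overlapped in both pools, while those of Fosb overlapped in neither.

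These genes can also rise while tissue is dissociated, so the handling stress list they belong to was read as a whole. Of its 14 members tested, 6 fell and 0 rose, beside 1.74% of all genes called lower, with a median change of -0.28 beside -0.01 for all genes. The other 3 that fell were Jund (-0.28), Zfp36 (-0.44), which destabilises short-lived mRNAs, and Dnajb1 (-0.28), a heat-shock co-chaperone. Summed over the list, the larger pool had 3473 to 4215 CPM at day 7 and 2671 to 3052 at day 10, with no overlap. The smaller pool had 2512 to 3020 CPM at day 7 and 2777 to 3390 at day 10, which is not lower. Within that pool 9 of the 14 members were nonetheless below zero, with a median of -0.17, among them Fos (-0.86), Jun (-1.02), Fosb (-1.63) and Zfp36 (-0.35). How long the cells of each mouse were held before capture was not given in the sources used here, and the part of handling was not tested.

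The other large falls at that level were of genes with varied roles. Ptprj encodes CD148, a receptor phosphatase that acts on Src family kinases below the B cell receptor, and lay between 57.8 and 118 CPM at day 7 (median 70.6), between 32.8 and 70.0 at day 9 (median 45.0) and between 32.6 and 63.4 at day 10 (median 50.7). Its level at day 9 was already that of day 10: the change over day 7 was -0.60 (adjusted p = 0.017) at day 9 and -0.60 ± 0.10 (adjusted p = 0.00089) at day 10. Rdx, which links actin to the membrane, changed by -0.90 ± 0.14 (adjusted p = 0.00023), from a median of 30.2 CPM (13.6 to 38.5) to 15.1 CPM (10.7 to 23). Vim, the intermediate filament vimentin, fell from a median of 331 CPM (252 to 440) to 252 CPM (174 to 299), a change of -0.44 ± 0.07 (adjusted p = 0.00068) without overlap within either pool. Hbb-bh1, an embryonic globin gene, changed by -0.85 ± 0.18 (adjusted p = 0.0057) from a median of 34.2 to 13.5 CPM. Of the 5 listed erythroid genes, the adult globins Hba-a1 and Hba-a2 were at 0 in all 23 mice. That list still summed to 2.56 to 11.4 CPM, and its 1 tested member changed by -0.41 without a call. The part of red cell RNA in the fall was not tested. Pxdc1 (-0.71), the ubiquitin ligase Nedd4 (-0.52), the ERK phosphatase Dusp5 (-0.52), the desaturase Scd2 (-0.50), L3mbtl3 (-0.49) and the sialic acid hydroxylase Cmah (-0.48) made up the rest of the 12.

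The middle day was then placed between the outer ones. Against day 7, 5 genes were higher and 3 lower at day 9 (0.0499% and 0.03% of 10016, together 0.0799%), and 816 had an unadjusted p under 0.05. Against day 9, 8 genes were higher and 1 lower at day 10 (0.0799% and 0.00998%, together 0.0899%), and 717 had an unadjusted p under 0.05. A contrast for whether day 9 departed from a straight line between day 7 and day 10 called 0 genes in edgeR and in DESeq2, with 485 at an unadjusted p under 0.05 in edgeR. Among the genes called between day 10 and day 7, the fitted day 9 level lay between the outer days for 144 of 157 rises and 167 of 174 falls, and the median share of the change reached by day 9 was 45.9% and 55.3%. The comparisons share their mice, and these values describe the called genes without testing them. Calling a gene for its gap between day 7 and day 10 itself favours a day 9 level between them. The same count over all genes tested is not given here.

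The genes named for the first interval were chosen for their change by day 9, so their early course is a description. Parm1, a mucin-like membrane protein, had medians of 93.8, 141 and 139 CPM at days 7, 9 and 10, and its change over day 7 was 0.50 at day 9 (adjusted p = 0.0017) and 0.50 at day 10 (adjusted p = 0.00011). Slc4a8, a bicarbonate transporter, had medians of 13.3, 18.6 and 19.4 CPM, with changes of 0.53 at day 9 (adjusted p = 0.0017) and 0.56 at day 10 (adjusted p = 3.7e-05). Ntng2 rose by 0.52 by day 9 (adjusted p = 0.024) and was 0.67 above day 7 at day 10. Together with Def8 these were the 4 rises that the rule for naming genes chose for this interval, and Ptprj was its 1 fall.

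The genes named for the second interval were likewise chosen for their change after day 9. Glul, which makes glutamine, had medians of 64.2, 61.9 and 81.4 CPM, and day 10 was 0.45 above day 9 (adjusted p = 0.0496). Mast4, a kinase, had medians of 18.4, 16.9 and 28 CPM and a change of 0.59 over the last day (adjusted p = 0.0496). Rgs13, Igf2bp3 and Il9r were also called in that interval, and of these Il9r had already changed by 0.79 at day 9 (adjusted p = 0.15). Brwd3, a bromodomain protein, was the 1 gene to fall, with medians of 48.4, 47.4 and 40.2 CPM and a change of -0.29 (adjusted p = 0.0496). Several of these lie at the threshold, and the count for this interval ran from 0 to 31 when 1 mouse was left out. The count was 31 without 1 day 10 mouse of the smaller pool, and 0 without either of 2 day 9 mice, 1 in each pool.

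**Figure D3:**
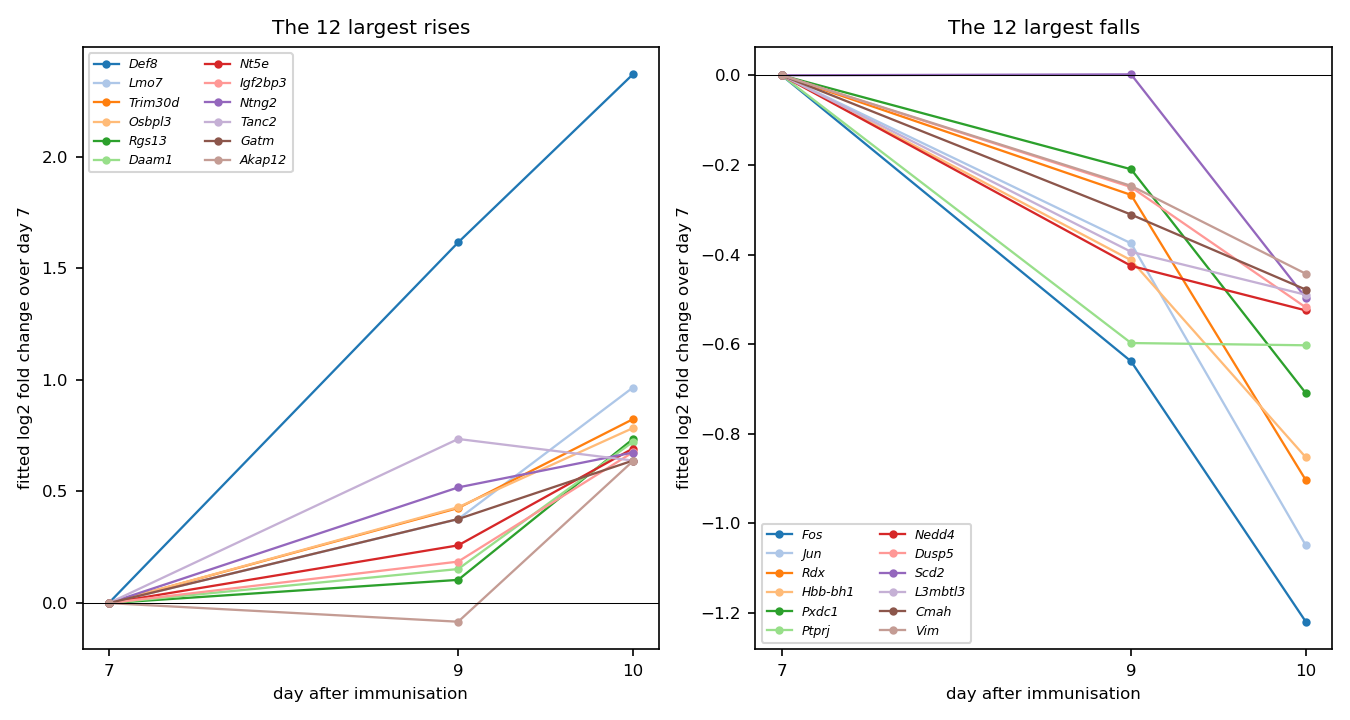
Fitted log2 fold change over day 7 (vertical axis) at days 7, 9 and 10 after immunisation (horizontal axis) for the 12 largest rises and the 12 largest falls between day 7 and day 10 with an average log2 CPM above 4. Ptprj and Tanc2 had reached their day 10 change by day 9, and Akap12, Rgs13 and Scd2 were near their day 7 level at day 9.

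Gene lists for the roles of GC B cells were described next, by their counts beside the 3.3% of all genes called. Of 22 genes of GC B cell identity, 3 rose and 0 fell, and the median change was -0.02. Besides Rgs13 these were Mef2b, a transcription factor that acts upstream of Bcl6, with a change of 0.17 ± 0.04 (adjusted p = 0.025), and Basp1, with 0.25 ± 0.07 (adjusted p = 0.047). Bcl6 itself, the repressor that defines the GC programme, had medians of 292, 272 and 262 CPM and a change of -0.14 ± 0.04 that did not pass (adjusted p = 0.051). S1pr2, the receptor that confines cells to the GC, had a change of -0.17 ± 0.05 (adjusted p = 0.061). Nuggc, a GTPase among the 9 GC B cell markers, fell with a change of -0.21 ± 0.05 (adjusted p = 0.0067).

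Dark zone genes showed no called change: of 12 tested, 0 rose and 0 fell, 2 were above zero, and the median was -0.05. Cxcr4, the chemokine receptor that draws cells into the dark zone, was at 115, 121 and 119 CPM at the 3 days by median, with a change of -0.04 ± 0.07 (adjusted p = 0.85).

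Among 29 light zone genes, 5 rose and 2 fell, 20 were above zero, and the median change was 0.16. In switched B1-8hi cells only, described below, 0 of 28 were called, with 20 above zero and a median of 0.10. Summed over the list in all cells, day 7 mice had 1788 to 2574 CPM (median 2064). Day 10 mice had 1926 to 2327 CPM (median 2173), which lies within the day 7 range. Cd40, the receptor for help from T cells, went from a median of 62.5 CPM (43.5 to 79.2) to 76.9 CPM (67.7 to 87.3), a rise of 0.30 ± 0.07 (adjusted p = 0.0075). Nfkbia, the inhibitor that NF-kB induces to limit itself, had medians of 167, 176 and 212 CPM and rose by 0.34 ± 0.06 (adjusted p = 0.00083), with the days apart in each pool. Nfkb2 and Relb, the pair of subunits of the alternative NF-kB pathway, rose by 0.35 ± 0.09 (adjusted p = 0.029) and 0.32 ± 0.06 (adjusted p = 0.0047). Il4i1, an amino acid oxidase, went from a median of 76.6 to 116 CPM and rose by 0.57 ± 0.09 (adjusted p = 0.00065). Members with another course were Rel, the c-Rel subunit, which fell by 0.21 on the log2 scale (adjusted p = 0.024), and Bhlhe40, a repressor of cell cycle and metabolic genes, which had a change of -0.82 ± 0.19 (adjusted p = 0.013). Cd83 (0.02 ± 0.06, adjusted p = 0.93) did not pass, nor did Myc (0.40 ± 0.19, adjusted p = 0.29), a gene of cells that have just received help.

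The 3 called members of this list whose promoter holds a kB motif are shown because 2 of them rose and 1 fell. The motif searched was GGG, any 2 bases and TTTCC, on either strand, in the 250 bases before each RefSeq gene start (table build GRCm38.p6). It occurred in 378 of 27025 promoters (1.40%), in 6 of 120 promoters of genes that rose (5%), in 6 of 139 of genes that fell (4.32%) and in 3 of 18 light zone genes with a promoter. Coordinates are those of exact matches in GRCm39, and capitals mark the motif. Nfkbia is shown whole, on the minus strand at chr12:55539433-55539682. For Nfkb2 (plus strand, chr19:46293155-46293184) and Rel (minus strand, chr11:23721041-23721070), whose windows overlap an annotated first exon, the motif is shown with 10 bases on each side.
Nfkbia: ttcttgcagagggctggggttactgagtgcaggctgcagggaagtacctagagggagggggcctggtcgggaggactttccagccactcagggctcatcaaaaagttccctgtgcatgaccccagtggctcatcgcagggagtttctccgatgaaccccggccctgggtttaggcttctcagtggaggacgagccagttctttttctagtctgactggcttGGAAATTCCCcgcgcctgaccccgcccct
Nfkb2: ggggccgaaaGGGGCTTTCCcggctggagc
Rel: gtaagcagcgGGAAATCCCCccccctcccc
The motif starts 29 bases before the gene start in Nfkbia, 11 in Nfkb2 and 91 in Rel. A match to these letters is a description of the sequence and not of binding.

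Receptors and their signalling are set beside the same 3.3% of all genes called. Of 17 receptors and ligands for T cell help, Cd40 rose and Tnfrsf13b fell. Tnfrsf13b encodes TACI, a receptor for BAFF and APRIL, and went from a median of 118 CPM (89.2 to 145) to 82.7 CPM (59.4 to 116), a change of -0.42 ± 0.10 (adjusted p = 0.012). Of 25 genes of B cell receptor signalling, 0 rose and 2 fell, 19 were below zero, and the median was -0.07. Both that fell are inhibitors: Fcgr2b, the inhibitory Fc receptor, with a change of -0.35 ± 0.07 (adjusted p = 0.0025), and Ptpn6, the phosphatase SHP-1, with -0.17 ± 0.05 (adjusted p = 0.042). Ly75, which encodes the DEC-205 receptor, had medians of 37.7, 44.1 and 47.0 CPM and a change of 0.27 ± 0.09 (adjusted p = 0.088). H2-Oa, which restrains peptide loading of MHC class II, was the 1 of 11 class II genes that rose (0.33 ± 0.09, adjusted p = 0.04).

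Of 18 memory precursor genes tested, 3 rose and 1 fell, beside 3.3% of all genes called, and the median was -0.02. That median moved with the cells and pool used: 0.30 in G1 cells, 0.09 in switched B1-8hi cells, 0.10 in the smaller and -0.06 in the larger pool. Il9r, the IL-9 receptor of memory precursors, rose 3.08-fold (log2 change 1.62 ± 0.17, adjusted p = 2.6e-06), from 3.87 to 9.94 CPM at day 7 to 11 to 30.9 at day 10, with no overlap. Zeb2, a transcription factor, rose by 0.59 ± 0.14 (adjusted p = 0.018), Nt5e rose and Vim fell as above. Cd38 (-0.42, adjusted p = 0.13), Ccr6 (0.33, adjusted p = 0.55) and Klf2 (-0.61, adjusted p = 0.12), which are also used to tell memory cells from GC cells, did not pass. None of 16 plasma cell genes was called, and Prdm1, which encodes the plasma cell factor BLIMP1, ran from 0.483 to 9.59 CPM at day 7 and from 0.890 to 16.2 at day 10 (0.86 ± 0.50, adjusted p = 0.41). These levels are sums over the cells of a mouse, in which the number of cells with a transcript and the copies per cell cannot be told apart, and only Def8 and Rgs13 were also read per cell.

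Genes of survival and of repair during mutation had 1 call each, beside 1.74% of all genes called lower. Mcl1, which GC B cells need to survive, fell with a change of -0.16 ± 0.04 (adjusted p = 0.04) among 13 tested members of the Bcl-2 family. Hmces, which protects abasic sites in DNA, fell from a median of 573 CPM (506 to 661) to 453 CPM (400 to 561), a change of -0.29 ± 0.06 (adjusted p = 0.0037) among 9 hypermutation genes.

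**Figure D4:**
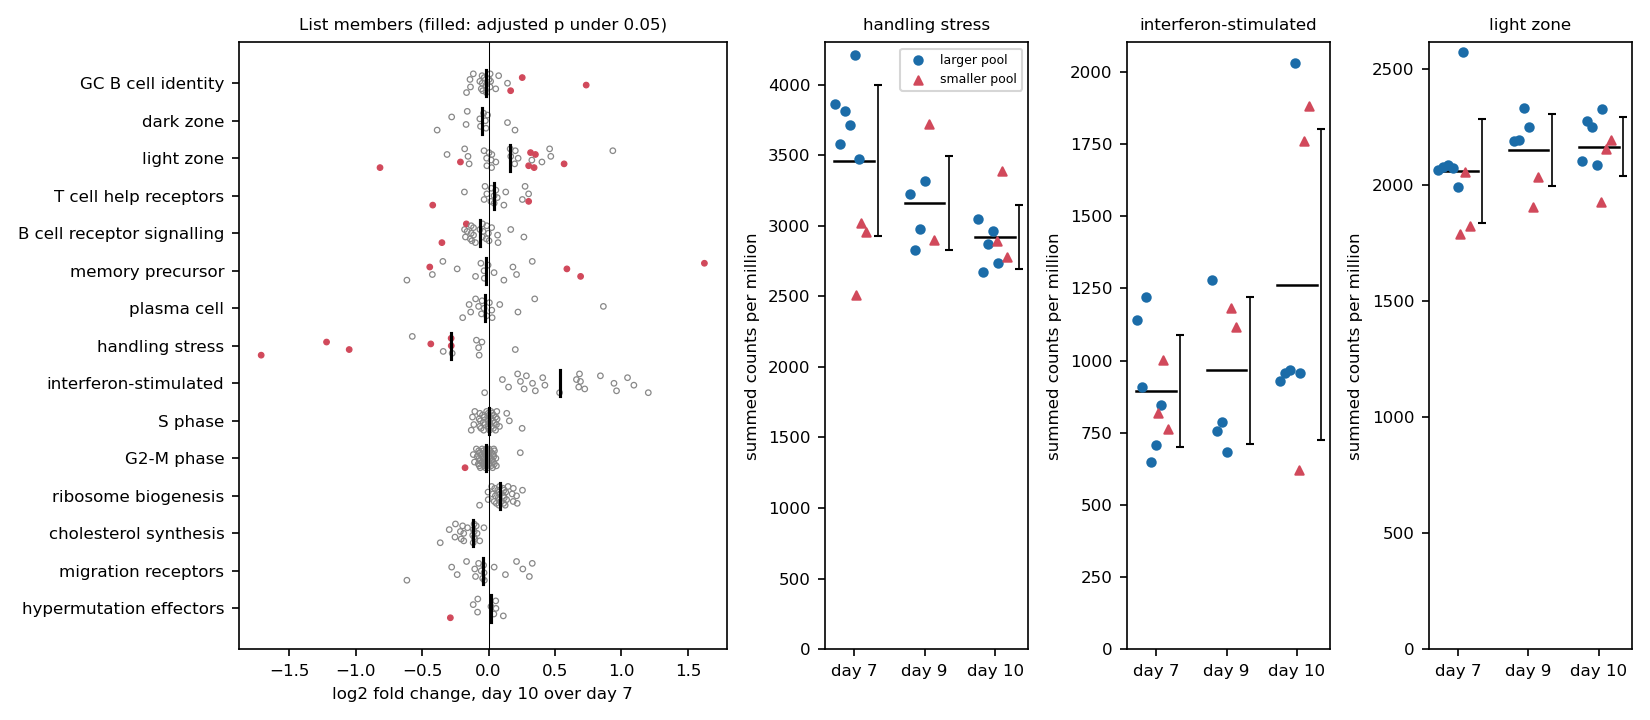
Left, log2 fold change of day 10 over day 7 for the tested members of 15 lists, filled where the adjusted p was under 0.05, with the median as a black bar. Right, summed CPM of 3 lists in each mouse by day (circles, larger pool; triangles, smaller pool; line, mean; bar, SD). Interferon-stimulated genes lie to the right with no call, and 3 day 10 mice stand above the others in their sum.

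Some lists leaned to 1 side with 0 called members. Of 23 interferon-stimulated genes, 0 were called, 22 were above zero, and the median change was 0.53. In the larger pool alone 1 of 21 was called higher, with a median of 0.28. In the smaller pool 0 of 25 were called, with a median of 0.99. Summed over the list, day 10 gave 1761 to 2032 CPM in 3 mice, 1 of the larger and 2 of the smaller pool, and 620 to 967 CPM in the other 5, while day 7 mice covered 647 to 1221 CPM. Ifit3, for instance, ran from 0 to 15.9 CPM over the mice. All 21 genes of cholesterol synthesis were below zero, with a median of -0.12 and 0 calls, and the 2 lowest adjusted p were 0.057 for Msmo1 and 0.072 for Cyp51. That direction was the larger pool's, with all 21 below zero and 1 called there, and 11 of 21 above zero in the smaller pool. The middle day did not lie between the others for this list, since 17 of the 21 were above zero at day 9 against day 7 (median 0.07) and all 21 were below zero at day 10 against day 9 (median -0.24), with 0 calls in either. Of 32 genes of ribosome biogenesis 29 were above zero with a median of 0.09 and 0 calls. Here the lean was the smaller pool's, with 32 of 32 above zero and a median of 0.27, beside 20 of 32 and 0.02 in the larger pool. None of 42 S phase genes and 1 of 54 G2-M genes was called, which was Lbr, the lamin B receptor (-0.18 ± 0.04, adjusted p = 0.018). A share of 1 in 54 is near the 1.74% of all genes called lower. Oxidative phosphorylation (81 genes, median -0.04), glycolysis (16, -0.02), cytosolic ribosomal proteins (81, 0.04), MHC class I presentation (13, 0.05), migration receptors (18, -0.04) and mitochondrial transcripts (13, 0.00) held 0 calls. The larger pool alone called 2 class I genes higher (median 0.13), and the smaller pool 0 (0.05). Cytosolic ribosomal proteins were above zero for 81 of 81 in the smaller pool (0.13) and 42 of 81 in the larger (0.00). In G1 cells 4 of 79 oxidative phosphorylation genes fell (median -0.09). Among the lists just given, the sign of the median differed between the pools for cholesterol synthesis (-0.23 in the larger and 0.01 in the smaller pool) and glycolysis (-0.08 and 0.19). It also differed for S phase, G2-M, oxidative phosphorylation, mitochondrial transcripts and migration receptors.

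Cell-cycle phases were given to single cells from S and G2-M gene scores, which share genes with the lists above. The share of cells in G1 had a median over mice of 45.7% at day 7 (38.9% to 68.6%), 53.1% at day 9 (46.6% to 56.9%) and 49.6% at day 10 (39.3% to 56.1%). Day 10 was above day 7 by 0.383 percentage points in G1 (p = 0.926), by 0.0252 in S (p = 0.99) and below it by -0.408 in G2-M (p = 0.861), in exact two-sided permutation tests of the mice within pools. None of 9 such tests over phases and pairs of days passed after adjustment, and the lowest was an adjusted p of 0.439 in the exact tests for S phase.

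Receptor contigs of the same cells gave a further pair of shares. The share with the B1-8hi pairing, the knocked-in heavy chain with its lambda light chain, was 57.4% to 66.7% at day 7 and 67.1% to 72.4% at day 10 in the larger pool, and 36.8% to 39.8% and 37.9% to 42.7% in the smaller. Day 10 was higher by 4.81 percentage points (exact permutation within pools, p = 0.00184, adjusted p = 0.00552 over the 3 pairs of days). The smaller pool alone gave 1.74 points (exact p = 0.4, where its design cannot go below 0.1). A cell counts here only if both its chains were captured, so levels were not compared between pools.

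Among paired cells whose contig names an isotype, the share that had switched from IgM or IgD was lower at day 10. It was 79.6% to 87.1% at day 7 and 69.7% to 84.8% at day 9. At day 10 the 5 mice of the larger pool had 10.4%, 22.7%, 42.3%, 56.7% and 67.8%, and the 3 of the smaller pool 39.7%, 48.2% and 81.4%. All but 1 day 10 mouse were below every day 7 mouse, and the spread among the day 10 mice was itself wide. The difference of -36.3 percentage points passed (exact permutation within pools, p = 0.000325, adjusted p = 0.000974 over 3 pairs of days), and day 10 was also below day 9 by -30.9 points (exact adjusted p = 0.0167). Day 9 was below day 7 by -5.54 points (exact adjusted p = 0.0195). These 3 tests were added after the values had been seen. In the larger pool alone the difference was -42.9 points (exact p = 0.00216, the smallest it can give) and in the smaller -24.3 points (exact p = 0.3).

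**Figure D5:**
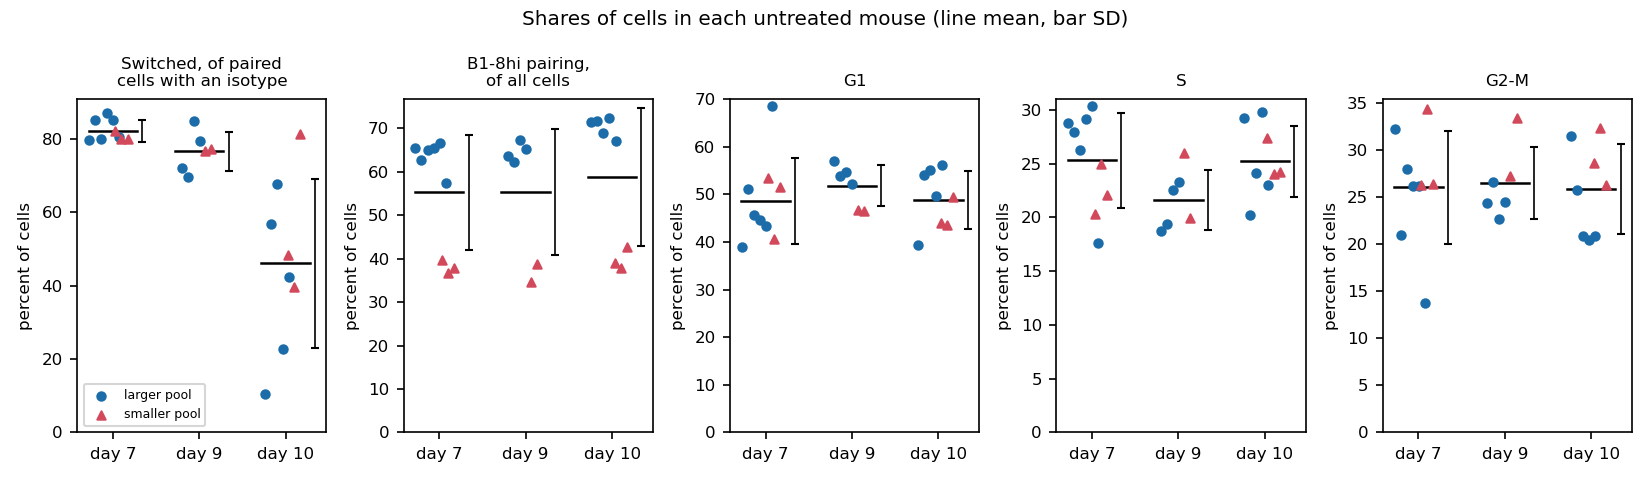
Percent of cells in each mouse by day that had switched isotype (of B1-8hi-paired cells with an isotype), that held the B1-8hi pairing, and that were in G1, S or G2-M (circles, larger pool; triangles, smaller pool; line, mean; bar, SD). The switched share spans 10.4% to 81.4% at day 10 after 79.6% to 87.1% at day 7, while the 3 phases overlap throughout.

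Because this share moved with the day, the gene comparison was repeated on switched B1-8hi cells only, 35 to 354 cells per day 10 mouse and 96 to 337 per day 7 mouse. In these cells 19 genes were higher and 12 lower, of 9285 tested. All 320 of the 331 genes that could be tested kept their direction, with a median ratio to the change in all cells of 0.90, and 29 passed again. These cells are part of the same libraries, so this is not independent of the first comparison. Of the 48 called genes that the naming rule chose, 14 passed in switched cells and 34 did not, 11 of these with a change over 1.5 times smaller. Def8 (2.50, adjusted p = 1.5e-05), Il9r (1.55, adjusted p = 0.00037), Lmo7 (0.98), Igf2bp3 (0.81), Rgs13 (0.67), Nt5e (0.68) and Slc4a8 (0.64) among the rises, and Ptprj (-0.90), Fos (-0.98), Rdx (-0.84), Zfp36 (-0.41) and Fcgr2b (-0.37) among the falls, passed in switched cells as well. Glul, at 0.43 in all cells, was at 0.03 in switched cells (adjusted p = 1), and Nedd4 went from -0.52 to -0.12 (adjusted p = 0.80). Tnfrsf13b went from -0.42 to -0.14 (adjusted p = 0.65), Mef2b from 0.17 to 0.05 (adjusted p = 0.90), Cmah from -0.48 to -0.26 (adjusted p = 0.49), Gatm from 0.64 to 0.36 (adjusted p = 0.11) and Vim from -0.44 to -0.27 (adjusted p = 0.18). Hmces (-0.18, adjusted p = 0.30), Nuggc (-0.13, adjusted p = 0.38) and Hbb-bh1 (-0.56, adjusted p = 0.26) were the others of the 11 beside Nfkbia. For Cd40 (0.36, adjusted p = 0.09), Nfkbia (0.22, adjusted p = 0.36), Nfkb2 (0.30, adjusted p = 0.39), Il4i1 (0.50, adjusted p = 0.16) and Bhlhe40 (-0.74, adjusted p = 0.38) the call was lost while the direction stayed. In all B1-8hi-paired cells, switched or not, 243 genes were called, and in G1 cells alone 226. Of the 48 genes, 32 passed in G1 cells and 16 did not, 10 of these with a change over 1.5 times smaller. Among the large falls without a call there, Rdx had a change of -0.12 (adjusted p = 0.83), Cmah -0.16 (adjusted p = 0.48), L3mbtl3 -0.20 (adjusted p = 0.46), Jun -0.54 (adjusted p = 0.36) and Scd2 -0.43 (adjusted p = 0.066). Igf2bp3 had a change of 0.52 in G1 cells and also missed the threshold (adjusted p = 0.054). The others of the 10 beside Rdx, Cmah, L3mbtl3 and Jun were Bhlhe40 (-0.43, adjusted p = 0.40), Brwd3 (-0.16, adjusted p = 0.38), Basp1 (0.15, adjusted p = 0.35), Mef2b (0.06, adjusted p = 0.70), Ptpn6 (-0.08, adjusted p = 0.50) and Mcl1 (-0.09, adjusted p = 0.48).

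Of the 55 genes that the naming rule chose, those called whose adjusted p passed 0.05 when 1 mouse was left out were H2-Oa (up to 0.107), Ptpn6 (0.102), Trim30d (0.096), Basp1 (0.0947), Mcl1 (0.0888), Nfkb2 (0.0734), Mef2b (0.0646), Zeb2 (0.0574) and Scd2 (0.0564), by edgeR as before.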

How the data were processed

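Droplet 5′ libraries of sorted lymph node GC B cells were made per pool, as gene expression, hashtag and immunoglobulin libraries. The files deposited by the authors hold UMI counts of every gene in every cell, made with CellRanger (8.0.1 in the file headers, 6.0.1 in the submitters' processing notes, build mm39), not normalized, with contig tables and the list that ties 2 hashtags and a day to each mouse. Cells were assigned with HTODemux in Seurat 5.3.0 (quantile 0.99). Barcodes carrying over 2 hashtags were dropped (1936 and 2705 of 16424 and 18233), while doublets within a mouse were not searched for. Counts were summed per mouse and tested with edgeR 4.0.16 (filterByExpr, TMM, quasi-likelihood, pool term, 3 days in 1 fit) in R 4.3.3, with values printed as TMM-scaled CPM. On simulated data for day 10 against day 7 (10016 genes), 80 of 100 genes changed by 0.5 and 96 of 100 changed by 1 (log2) were recovered, with 6 false calls. These data were drawn once, gene by gene, with no difference between pools and the same spread at each day. The real pools and days may differ from that, so these counts may not hold for the real mice. Shares were tested by exact permutation within pools in Python 3.11.15 with scipy 1.17.1. DESeq2 1.42.0 and other cell sets were alternatives. Gene positions come from GENCODE on GRCm39. Members and 31 gene lists were chosen with earlier results of these data known. Genes were named by a rule: for day 10 against day 7 the 12 largest rises and falls past the threshold with average log2 CPM above 4 and 1 direction in both pools, 5 for each other comparison, up to 4 called members per list and 7 fixed genes, with immunoglobulin and unnamed genes left out. Relb, Jund and Dnajb1, Rel and the uncalled members with values were named beyond it to complete counts. Some genes are not reported here. P-values weigh a difference between days against the spread between mice, which came from only 2 experiments.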

Additional observations from a re-analysis of the deposited data

Results flagged for a closer look

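Of 180 sets of values (55 genes and 5 shares of cells at each of 3 days), 7 held 1 mouse far from the rest of its day by Dixon's test, which chance gives in about 5% of sets. At day 7 these were the highest mouse for Daam1 (39.2 CPM), Akap12 (32.3 CPM), Il4i1 (134 CPM) and the share of cells in G1 (68.6%). At day 9 they were the lowest mouse for Cmah (60.1 CPM) and the highest for Slc4a8 (20.9 CPM) and Myc (55.9 CPM). A test of whether the change from day 7 to day 10 differed between pools called 0 of 10016 genes in edgeR, with 642 at an unadjusted p under 0.05.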

How the results depend on the processing

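For day 10 against day 7 (331 genes), the counts outside 1.5 times that number were 53 with no pool term, 218 in the larger pool alone, 0 in the smaller pool alone (971 at an unadjusted p under 0.05) and 31 in switched B1-8hi cells, an alternative chosen after seeing the data. DESeq2 called 394, and leaving out 1 mouse gave 246 to 420. Each of the 331 genes kept its direction in every one of the 12 alternatives in which it was tested. The alternatives reuse the mice on which these genes were chosen, so this agreement is not independent of the first comparison. Genes chosen in the larger pool alone kept their direction in the smaller pool for 86.1% of rises and 86.3% of falls. Day 9 against day 7 (8 genes) gave 18 with DESeq2, 20 without a filter on low counts, 2 with no pool term, 13 with all 39 mice, 5 in switched cells, 17 in G1 cells, 5 in the larger and 0 in the smaller pool (712 unadjusted), and 3 to 15 with 1 mouse left out. Day 10 against day 9 (9 genes) gave 39 with DESeq2, 18 without the filter, 16 with all 39 mice, 1 with RLE size factors and in the larger pool, and 0 with no pool term, in paired cells, in switched cells and in the smaller pool (285, 755, 513 and 357 unadjusted), and 0 to 31 with 1 mouse left out. The departure of day 9 from the line gave 1 gene in G1 cells and 0 with any 1 mouse left out. The cause of these moves was not tested.

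No phase difference passed in the main test, and its sign turned for G1 with thinned cells (-1.04 points) and in the smaller pool (-2.77), for S without the cell filter (-0.634), in paired cells (-1.32), with the highest hashtags (-0.18) and in the larger pool (-1.45), and for G2-M with thinned cells (0.833), in paired cells (0.834) and in the smaller pool (0.0631). With 1 mouse left out the differences ran from -0.943 to 2.77 for G1, from -1.02 to 0.929 for S and from -1.74 to 0.57 for G2-M, and that of the B1-8hi share from 3.91 to 5.34, which was 1.74 and not past the threshold in the smaller pool. Among named genes, Cxcr4 turned in paired cells (0.0071) and in the larger pool (0.025), and Cd83 turned with no pool term (-0.0044), in paired cells (-0.021), in switched cells (-0.11), in the larger pool (-0.053) and with 1 mouse left out (-0.018 to 0.071), neither gene being called. No paired analysis was possible because the groups share no replicate numbers that tie mice of different days together. Days were compared over 2 to 6 mice of a day in a pool, and 1 mouse gave 35 switched cells; changes under 0.5 on the log2 scale were not simulated, so how often they would be called is not known.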

Other observations

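The genes of this section lie outside the rule for naming and were chosen after their values were seen, so they stand for no group. Of 6 guanylate-binding protein genes tested, which interferon-gamma can induce, 3 rose between day 7 and day 10, beside 1.57% of all genes called higher: Gbp4 by 0.63 ± 0.11 (adjusted p = 0.0013), Gbp9 by 0.61 ± 0.13 (adjusted p = 0.0058) and Gbp5 by 1.25 ± 0.30 (adjusted p = 0.015) on the log2 scale. Gbp2 (0.68, adjusted p = 0.13), Gbp3 (0.43, adjusted p = 0.089) and Gbp8 (0.65, adjusted p = 0.15) did not pass. The 23 interferon-stimulated genes of the fixed list, Gbp2 among them, held 0 calls, and their sum stood apart in 3 of 8 day 10 mice. Gbp4 was at 20.3 to 21.9 CPM in those 3 mice, at 15.6 to 21.0 CPM in the other 5 and at 8.62 to 16.3 CPM in the day 7 mice. Gbp5, at a low level, ran from 0.359 to 3.11 CPM at day 7 and from 1.83 to 4.92 at day 10. Gbp9 ran from 14.0 to 28.8 CPM at day 7 and from 16.7 to 40.2 at day 10, so the days overlapped for both. Reads of such similar genes may be split between them.

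Ido1, an enzyme of tryptophan breakdown, rose by 1.03 ± 0.21 (adjusted p = 0.0048). The non-classical MHC class I genes H2-Q6 (0.53), H2-Q7 (0.57) and H2-T22 (0.33) rose as well, with adjusted p of 0.014, 0.017 and 0.0013 in edgeR, with the same limit on similar genes. For H2-Q6 and H2-Q7 the day 7 and day 10 mice overlapped in the smaller pool and not in the larger, and for H2-T22 in neither. Casp4, an inflammatory caspase, rose by 0.74 ± 0.12 (adjusted p = 0.00066) and had changed by 0.08 at day 9. Mical3, which oxidises actin, rose by 0.89 ± 0.11 (adjusted p = 2.2e-05) and had changed by 0.73 at day 9. Rasgef1b, an exchange factor for Ras-like GTPases, changed by -0.99 ± 0.15 (adjusted p = 0.00029), with -0.86 at day 9.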
